A study of Arabidopsis thaliana with 13 samples.

Results

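The regions described here are stretches of the Arabidopsis thaliana genome where CRY2, PIF4 and PIF5 were all called bound and whose middle lies within a protein-coding gene. Peaks of the 3 deposited lists were joined where they overlapped by at least 1 bp, which gave 12738 regions. Of these, 2123 held a peak of every protein, and 947 of those had their midpoint inside the annotated body of a nuclear protein-coding gene. The remaining 1176 three-protein regions had their midpoint outside genes. The 947 regions lay in 933 genes, 14 of which held 2 of them, and in 20 regions the midpoint lay in 2 overlapping genes. The regions were chosen by the measured peak calls themselves, so their peak strengths and positions are given as a description without a test. Their number was 303 with all 3 summits within 100 bp, 366 when only the stronger 50% of every list was used, 463 when the lists were cut to one length, and 514 with a midpoint at least 250 bp inside. Placing regions by all 3 summits in the same gene, in place of the midpoint, gave 553 regions in 548 genes, of which 459 were among the 933.

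CRY2 is a blue-light receptor that acts on transcription through partner proteins. PIF4 and PIF5 are basic helix-loop-helix transcription factors that bind DNA and promote elongation growth, and phytochrome and cryptochrome signals act on them. Chromatin immunoprecipitation (ChIP) with a FLAG antibody recovers DNA cross-linked to the tagged protein, directly or through other proteins, and a peak is a stretch where that DNA exceeds a control.

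The material was whole seedlings of ecotype Columbia at 5 days, raised in continuous white light and then held in low blue light for 16 h. The tagged lines carried 3xFlag-6xHis-CRY2 under the UBQ10 promoter, PIF4-3xFlag-6xHis, or PIF5-Flash (9xMyc-6xHis-3xFlag), and each FLAG precipitation was set against IgG. The promoter of the PIF transgenes is not stated in the labels. The 13 libraries comprised 2 FLAG and 2 IgG for CRY2, 3 FLAG and 2 IgG for PIF4, and 2 FLAG and 2 IgG for PIF5. CRY2 chromatin came from 18 g of tissue fixed with a pair of cross-linkers, one of them ethylene glycol bis-succinimidylsuccinate, whereas PIF chromatin came from 2 g, so protein and preparation cannot be told apart in any contrast of CRY2 with the PIFs. All groups shared the low blue treatment, so no light condition can be compared. The authors' lists pool the replicates, hold 7320 CRY2, 9925 PIF4 and 3767 PIF5 peaks, and give no depth and no value per library, so no spread between replicates was available. Every strength below is the authors' fold enrichment of FLAG over control for a single peak, taken from the strongest peak of that protein in the region.

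The share of three-protein regions with their midpoint inside a gene was 44.6% (95% Wilson interval 42.5 to 46.7, counting error only). Among merged regions of every kind, which include these, 46.0% had the midpoint inside a gene, close to the value for three-protein regions. With the gene table moved by 2000 bp, 65.1% of the three-protein midpoints fell inside a gene. The share differed widely by protein. It was 75.8% of 2791 regions with CRY2 alone, 31.1% of 4548 regions with PIF4 alone, 47.5% of 1845 regions with CRY2 and PIF4, and 31.0% of 1302 regions with PIF4 and PIF5. PIF5 lay mostly inside genes where PIF4 was absent, in 72.0% of 50 regions with PIF5 alone (58.3 to 82.5) and 84.8% of 79 regions with CRY2 and PIF5, both small classes. The 933 genes were 3.4% of 27444 nuclear protein-coding genes, which is the background for the gene counts given later. Chromosomes 1 to 5 held 249, 150, 205, 148 and 195 of the regions, and each chromosome's percentage was within 3 points of its percentage of all genes.

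The term "inside genes" described the midpoint better than the whole region. Only 66 regions (6.97%) lay wholly within the gene, 618 (65.3%) reached past 1 gene edge, and 263 (27.8%) reached past both. A median of 62.7% of a region's length fell inside the gene, and 424 regions (44.8%) touched at least 2 protein-coding genes. Of regions with CRY2 alone whose midpoint was in a gene, 57.5% lay wholly within it, but these were much narrower, with a median width of 481 bp, against 1578 bp for the three-protein regions. The part of width in this contrast was not tested. Regions past both edges had a median width of 2823 bp and lay in genes with a median length of 1477 bp, whereas those wholly inside were 1179 bp wide in genes of 3335.5 bp. For all nuclear protein-coding genes the median length was 2078 bp, and for the genes with these regions it was 2187 bp. Genes shorter than 1000 bp held a region least often, at 1.26% of 4377 genes, and the other length classes lay between 3.26% and 3.95%.

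The threshold itself separated regions of similar peak strength. The 63 regions whose midpoint lay at most 25 bp inside an edge had a median CRY2 fold enrichment of 2.41, with 3.07 for PIF4 and 2.34 for PIF5. The 50 three-protein regions whose midpoint lay at most 25 bp outside an edge had medians of 2.39, 3.11 and 2.385 in the same order. Their widths were less alike, with a median of 1025 bp for the 63 just inside and 1281 bp for the 50 just outside. The region over NodGS, which encodes a protein with a glutamine synthetase domain, had its midpoint 1 bp inside the gene.

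The point of highest signal of each peak, its summit, was placed by its distance from the gene edge nearer to the region's midpoint, with positive values pointing into the gene. The strand was not in the gene table used, so the edge may be the start or the end of the gene. Distance to the other edge was not measured, so a large positive value can lie near or past that edge and is not a depth. On this axis the CRY2 median was highest, at 259 bp, while the PIF5 median was 100 bp and the PIF4 median 70 bp. The CRY2 summit was inside the gene in 702 regions (74.1%), the PIF5 summit in 595 (62.8%) and the PIF4 summit in 552 (58.3%). In 462 regions (48.8%) all 3 summits were inside the gene, and in 160 regions (16.9%) none was. The CRY2 summit lay inside with both PIF summits outside in 155 regions (16.4%), and the reverse held in 53 (5.6%).

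**Figure D1:**
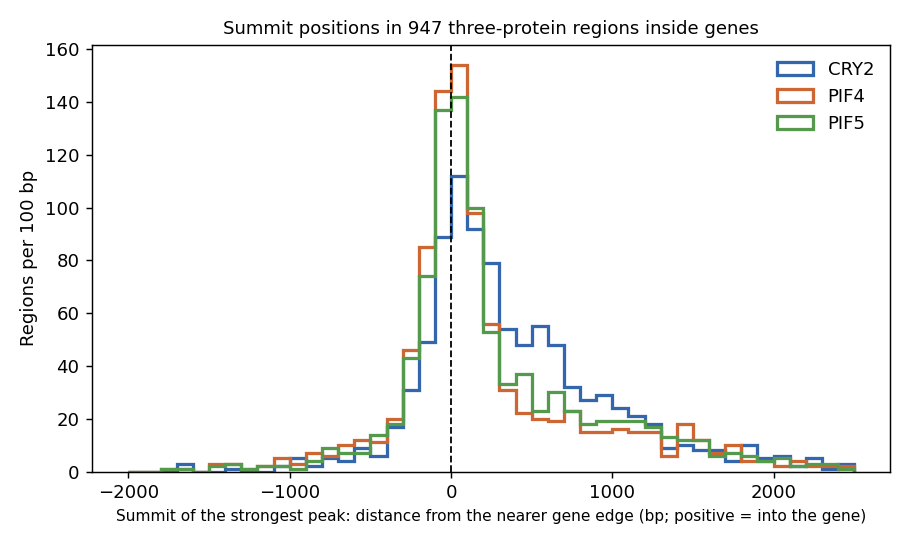
Histogram of summit positions in 947 regions with all 3 proteins and a midpoint inside a gene, in bins of 100 bp, with the distance from the nearer gene edge in bp on the horizontal axis (positive into the gene, distances past the drawn range not shown) and the number of regions on the vertical axis. All 3 proteins peak at the gene edge, and the CRY2 line lies below the PIF lines at the edge and above them farther in, up to about 1000 bp; median positions were 259 bp (CRY2), 70 bp (PIF4) and 100 bp (PIF5).

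On the axis from the edge nearer to the midpoint, the CRY2 summit was more than 50 bp farther inward than the PIF4 summit in 463 regions (48.9%). It was more than 50 bp farther outward in 241 (25.4%). In three-protein regions outside genes, where the same axis points toward the nearest gene, these shares were 40.5% and 29.1%. The contrast between directions was also seen in the 729 regions with exactly 1 peak of each protein, at 47.3% and 23.7%. PIF4 and PIF5 summits were close, within 50 bp of each other in 61.8% of the regions and at a median distance of 34 bp. CRY2 summits were farther from PIF4 summits, at a median distance of 133 bp inside genes and 94 bp in three-protein regions outside genes. All 3 summits fell within 100 bp of one another in 303 regions (32.0%) inside genes and in 513 regions (43.6%) outside them. Region widths moved with these distances: the median spread of the 3 summits was 94 bp in regions under 1000 bp and 1214 bp in those of 3000 bp or more. Within width classes, the median CRY2 to PIF4 distance inside and outside genes was 69 and 65 bp (under 1000 bp) and 112 and 96 bp (1000 to 2000 bp). It was 416 and 143.5 bp from 2000 to 3000 bp, and 1083.5 and 979 bp at 3000 bp or more. The part of width in the contrast was not tested. Despite the offsets, 921 regions (97.3%) had at least 1 base covered by a peak of every protein, over a median stretch of 650 bp.

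Named regions show how different the arrangements were. At AT5G04310, which spans 4980 bp, the 3 summits lay 2439, 2438 and 2431 bp into the gene for CRY2, PIF4 and PIF5, and the region (chromosome 5, 1205065 to 1206416, TAIR10) lay wholly inside. APA1, which encodes an aspartic protease, had its summits at -30, -35 and -35 bp, a spread of 5 bp just outside the gene edge. The largest spread, 5200 bp, was at PEN3, which encodes an ABC transporter of the plasma membrane: the CRY2 summit lay 5067 bp into the gene and the PIF4 summit at -133 bp. No base was common to the 3 peaks there. The widest region, 8199 bp over LBD37 (a LOB-domain regulator of nitrogen responses), held 4 CRY2 peaks, 1 PIF4 peak and 7 PIF5 peaks. At COL5, a B-box gene related to CONSTANS, a region of 7761 bp held 4 CRY2, 1 PIF4 and 4 PIF5 peaks, and the strongest PIF4 and PIF5 summits lay at -2576 and -2575 bp, well outside the gene that held the midpoint. After PEN3, the largest spreads were 4459 bp at AT1G27100 and 4277 bp at AT4G27654, which had 4 CRY2, 3 PIF4 and 1 PIF5 peaks around a gene of 515 bp.

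The 14 genes with 2 regions included EBF1, WRKY7 (a WRKY transcription factor gene), CESA6, TAPX (a thylakoid ascorbate peroxidase), ADR1-L1 and BIR1 (both known from immunity) and NET4B (an actin-binding protein). The others were LRR XI-23, AT2G01480, AT2G36950, AT2G45300, AT3G10720, AT3G22970 and AT5G57010. The 2 regions of a gene could be alike or unlike: at WRKY7, PIF4 had 3.35 and 3.33 while CRY2 had 2.22 and 2.93. Among the 66 regions wholly inside genes, those with the best mean rank were at AT1G15800, PUX4, ADR1-L1, CYP78A6 and ftsh10, a choice made after their values were seen. AT1G15800 had 3.27 for CRY2, 3.95 for PIF4 and 4.98 for PIF5, and its summits lay 1173 to 1493 bp into the gene.

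**Figure D2:**
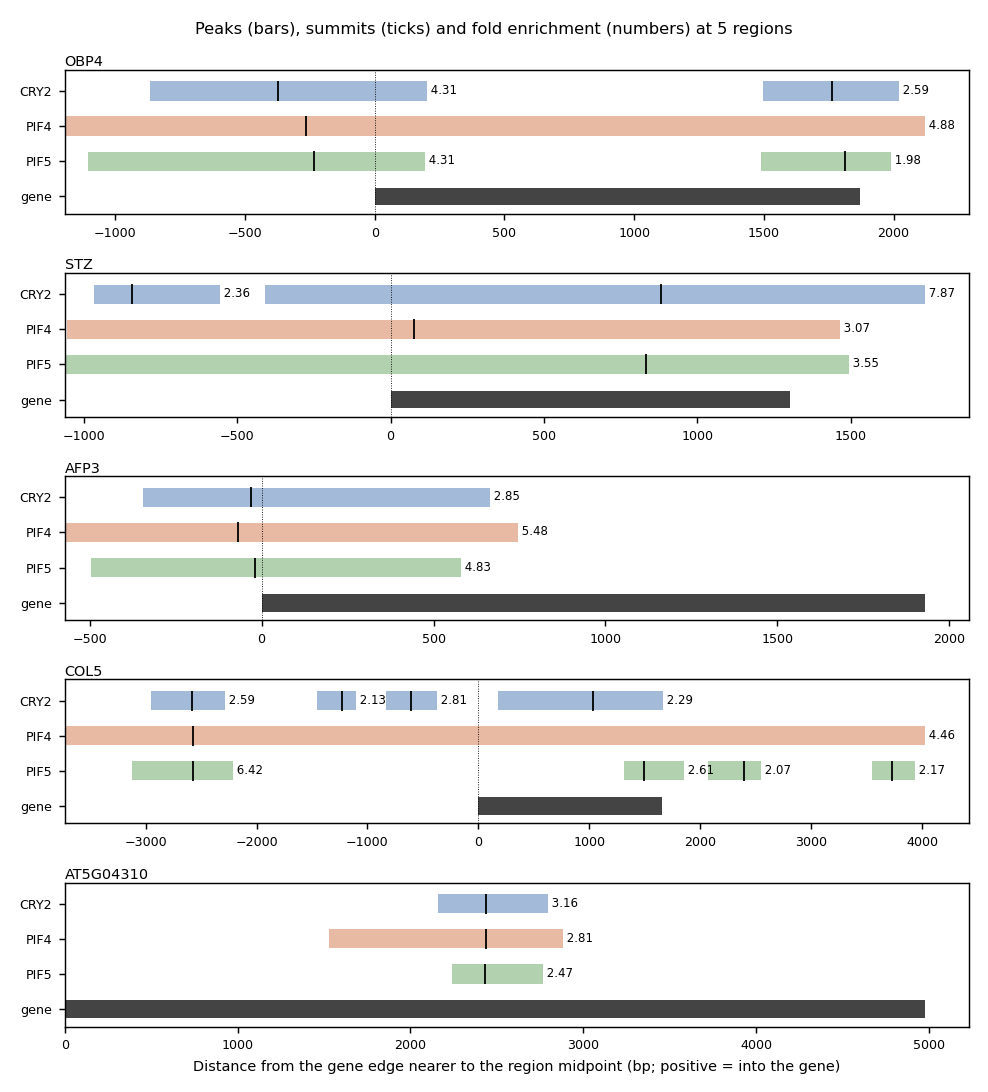
Maps of 5 regions, with the distance from the nearer gene edge in bp on the horizontal axis; bars are peaks, ticks are summits, numbers are fold enrichments and the dark bar is the gene. OBP4 had the best mean rank over the 3 lists, STZ, AFP3 and COL5 had the highest CRY2, PIF4 and PIF5 fold enrichment among the 947 regions, and AT5G04310 shows 3 summits within 8 bp of one another deep inside a gene.

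Peak strengths in these regions were above the medians of their own lists, and the differences from three-protein regions outside genes were small. CRY2 fold enrichment had a median of 2.48 in the regions inside genes, 2.41 in those outside genes and 2.29 over all CRY2 peaks. For PIF4 the medians were 3.06 inside genes, 3.27 outside genes and 2.46 over all PIF4 peaks. For PIF5 they were 2.51, 2.485 and 2.40 in the same order. Other regions with the midpoint in a gene had lower medians for some proteins: CRY2 had 2.21 in regions of its own alone and 2.30 where only PIF4 joined it, and PIF4 had 2.19 in those CRY2 and PIF4 regions but 3.02 where PIF5 joined it without CRY2. More than 1 PIF4 peak was present in 6.23% of the regions inside genes and in 1.79% of those outside genes, and the part of the number of peaks in these medians was not tested.

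**Figure D3:**
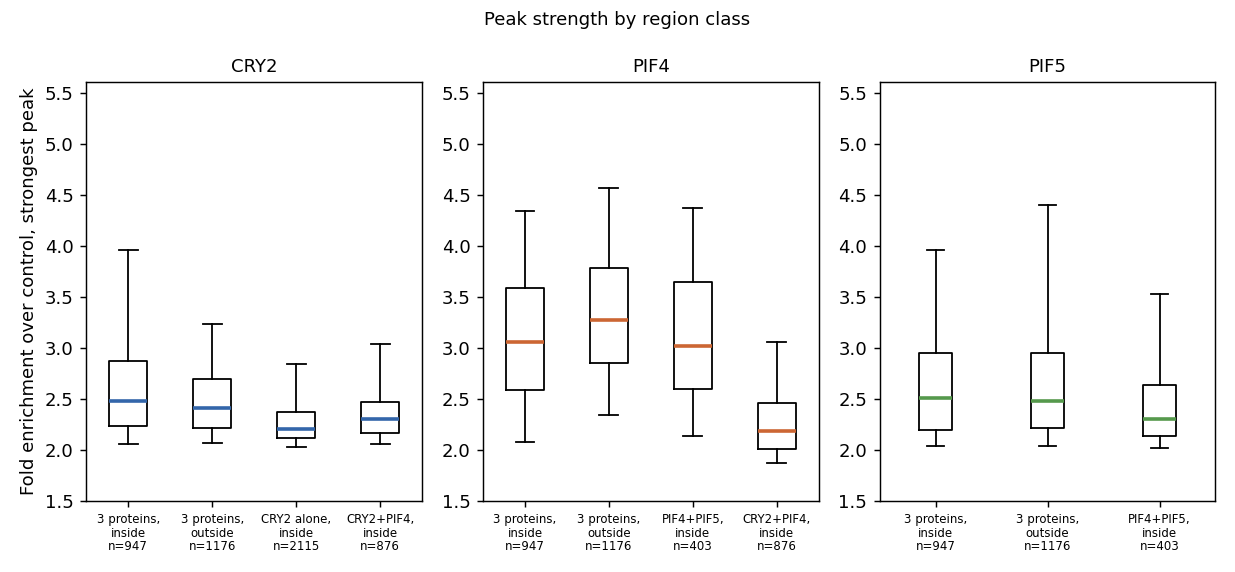
Fold enrichment over control of the strongest peak, by protein (panels) and class of region (boxes from the 25th to the 75th percentile, line at the median, whiskers from the 5th to the 95th percentile). The three-protein regions inside genes had a higher CRY2 median (2.48) and a lower PIF4 median (3.06) than those outside genes (2.41 and 3.27).

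Across the 947 regions, PIF4 and PIF5 fold enrichment had a Spearman rho of 0.541, CRY2 and PIF5 of 0.234, and CRY2 and PIF4 of -0.00421. In the 1176 three-protein regions outside genes the rho values were 0.695, 0.188 and 0.128. The points of such a correlation share chromatin, libraries and region width, and it is given as a description only.

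The strongest CRY2 peaks lay mostly in these regions. Of the 100 CRY2 peaks with the highest fold enrichment, 55 were in three-protein regions inside genes, against 15.5% of all CRY2 peaks, and 13 were in those outside genes, against 18.8%. The PIFs showed the other order: 19 of the 100 strongest PIF4 peaks and 23 of the 100 strongest PIF5 peaks lay in three-protein regions inside genes (10.2% of all PIF4 peaks and 27.4% of all PIF5 peaks did), against 42 and 57 in three-protein regions outside genes (12.1% and 33.8%). The CRY2 count was 34 with either shortened set of lists (the upper 50%, or lists of equal size), 31 where all 3 summits had to lie in 1 gene, and 9 where they had to lie within 100 bp. The 55 peaks lay in 54 regions, and in these the median width was 2694.5 bp, against 1511 bp in the other 893, and 64.8% reached past both gene edges, against 25.5%. Their median PIF5 fold enrichment was 3.315, against 2.48 in the others, and their median PIF4 fold enrichment 2.895, against 3.07.

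PIF5 medians were higher in each stronger CRY2 group, and PIF4 medians showed no such order. When the 947 regions were ordered by CRY2 fold enrichment and split into 5 groups of nearly equal size, the median PIF5 fold enrichment was 2.355, 2.40, 2.51, 2.59 and 2.745 from the weakest to the strongest group, whereas the PIF4 medians were 3.065, 3.11, 3.05, 3.14 and 3.00. The PIF5 peak stood higher in its own list than the PIF4 peak in its own in 14.7% of the weakest group and 40.5% of the strongest. In three-protein regions outside genes those shares were 10.6% and 16.2%. There the PIF5 medians were 2.40, 2.33, 2.45, 2.50 and 2.73 over the 5 groups, so a higher PIF5 median in the strongest CRY2 group was seen outside genes too. The PIF4 medians outside genes were 3.23 in the weakest and 3.51 in the strongest group. Region width moved with this order, at a median of 1327 bp in the weakest group and 2300.5 bp in the strongest, and its part was not tested. The 5 groups and the set of 100 peaks were chosen after the data had been seen.

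**Figure D4:**
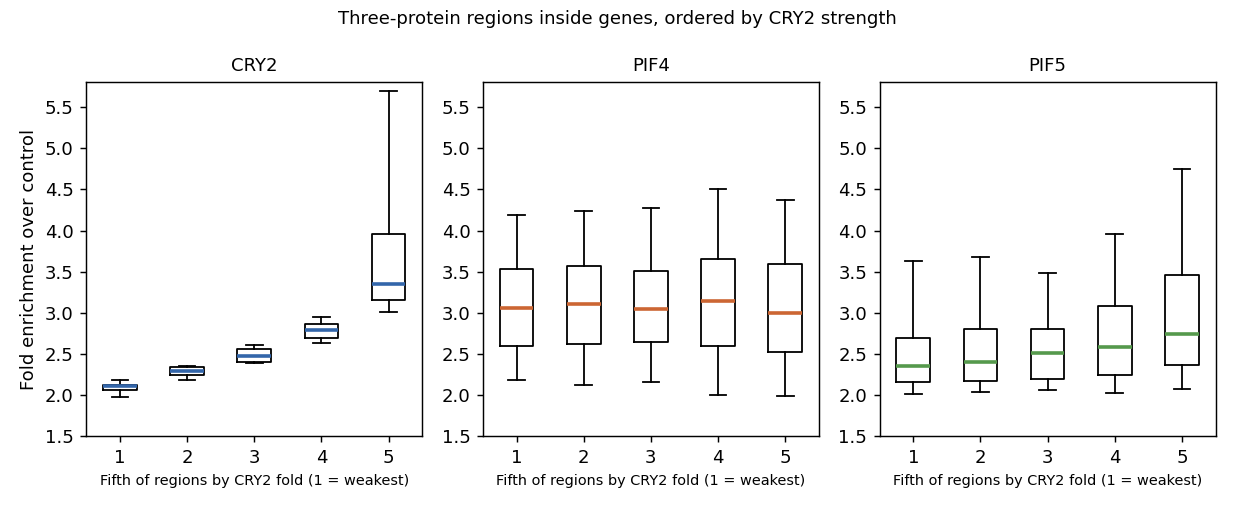
CRY2, PIF4 and PIF5 fold enrichment in the 947 regions, split into 5 groups by CRY2 fold enrichment (boxes from the 25th to the 75th percentile, line at the median, whiskers from the 5th to the 95th percentile). PIF5 medians were 2.355 in the weakest and 2.745 in the strongest group, while PIF4 medians lay between 3.00 and 3.14.

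STZ, a zinc finger repressor induced by salt and cold, had the strongest CRY2 peak of the whole list. Its region (chromosome 1, 9647580 to 9650384) had fold enrichments of 7.87 (CRY2), 3.07 (PIF4) and 3.55 (PIF5), and it had the CRY2 summit 881 bp and the PIF5 summit 833 bp into a gene of 1303 bp and the PIF4 summit at 78 bp. RAP2.4, an AP2-type transcription factor gene, had 7.01 for CRY2, 2.00 for PIF4 and 3.61 for PIF5, and J11, a chloroplast chaperone of the DnaJ type, had 6.86, 4.24 and 4.4. TCH4, a touch-induced xyloglucan endotransglucosylase that remodels cell walls, had 6.56 for CRY2 and 3.29 for PIF5 but 1.78 for PIF4, near the bottom of the PIF4 list. HSPRO2, a gene linked to resistance, had 6.45, 2.76 and 4.75. Genes with strong CRY2 below these 5 included, chosen after their values were seen, GSTF8 (a glutathione transferase, 6.03), DIC2 (a mitochondrial carrier, 5.1), ATAF1 (a NAC transcription factor, 4.92), COR47 (a cold-induced dehydrin, 4.89) and JAZ1 (a jasmonate repressor, 4.44). The regions over GSTF8 and DIC2 each also overlapped a tRNA gene. In the 5 highest, the CRY2 summit lay between 618 and 1217 bp inward from the edge nearer to the midpoint.

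Regions with the highest PIF values came next. AFP3, which encodes a protein that binds ABI5, had the highest PIF4 value of the 947 regions, 5.48, with 2.85 for CRY2 and 4.83 for PIF5, and its 3 summits lay at -31, -70 and -20 bp. HFR1, an atypical basic helix-loop-helix protein that restrains PIFs, had fold enrichments of 2.81 (CRY2), 5.18 (PIF4) and 5.79 (PIF5), and its strongest summits lay from -1414 to -1638 bp, outside the gene, in a region of 5141 bp (chromosome 1, 464813 to 469953). COL5 had the highest PIF5 value of the 947 regions, 6.42, followed by BBX28, a B-box protein of light signalling, at 6.34, with CRY2 at 2.81 and 3.16. The next highest PIF4 values were 5.12 at RTFL17, which encodes a small ROTUNDIFOLIA-like peptide, 5.11 at ERF10, an ERF transcription factor gene, and 5.03 at AT4G28240, where CRY2 stood at 2.64, 2.96 and 2.66. IAA2, an Aux/IAA repressor of auxin response, had 2.99 for CRY2, 4.72 for PIF4 and 6.06 for PIF5. AT4G34150 had 5.69 for CRY2 and 6.12 for PIF5 but 2.12 for PIF4. PUP14, a purine permease that takes up cytokinin, had 3.27, 2.63 and 5.94.

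Other regions had a CRY2 peak that stood far higher or lower in its own list than the PIF peaks stood in theirs. They were picked by these percentiles, not by the gap between the fold enrichments given here. MAPKKK14, a protein kinase gene, had 4.88 for CRY2 and only 1.84 and 2.06 for PIF4 and PIF5, and CWLP, a cell wall-plasma membrane linker protein, had 3.33, 1.97 and 2.07. RTFL12 and AT1G20823 showed the same order, with CRY2 at 3.09 and 2.73, PIF4 at 1.85 and 2.0 and PIF5 at 2.2 and 1.99. SRO5, a stress-response gene related to poly(ADP-ribose) polymerases, had 3.35, 2.09 and 2.06. At the other end, AT5G58450 had 1.90 for CRY2, 4.16 for PIF4 and 3.61 for PIF5, and LSH6, a gene of the ALOG family, had 2.03, 4.42 and 4.28. AT2G20515, NodGS and AT3G03150 completed the 5 regions with CRY2 most behind, with CRY2 from 1.93 to 2.05 and PIF4 from 3.54 to 4.56. Where all 3 were strong, OBP4, a DOF transcription factor gene, led with 4.31, 4.88 and 4.31, followed in mean rank by AT1G71520 and AT5G05140, which had 3.45 and 4.94 for CRY2. At OBP4 (chromosome 5, 24480040 to 24483357) the strongest summits lay at -371, -264 and -235 bp. The next 7 in mean rank were AT1G32920, J11, ZF2, UGT72E1 (a glucosyltransferase of the monolignol pathway), IAA16 (an Aux/IAA repressor), AT2G18090 and AT5G23280. Their CRY2 values lay between 3.16 and 6.86, their PIF4 values between 4.24 and 4.98 and their PIF5 values between 3.75 and 4.4. At J11 and ZF2 the summits parted: the CRY2 summit lay 812 and 705 bp into the gene, and the PIF4 summit at -208 and -1053 bp.

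Gene lists for light, clock, hormone, wall and stress responses held regions at unequal rates. Of the 285 distinct genes in the lists, 51 held a region (17.9%), against 3.4% of all nuclear protein-coding genes. No list was tested, and the lists were written with earlier results of these data known, so their shares are not independent evidence.

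**Figure D5:**
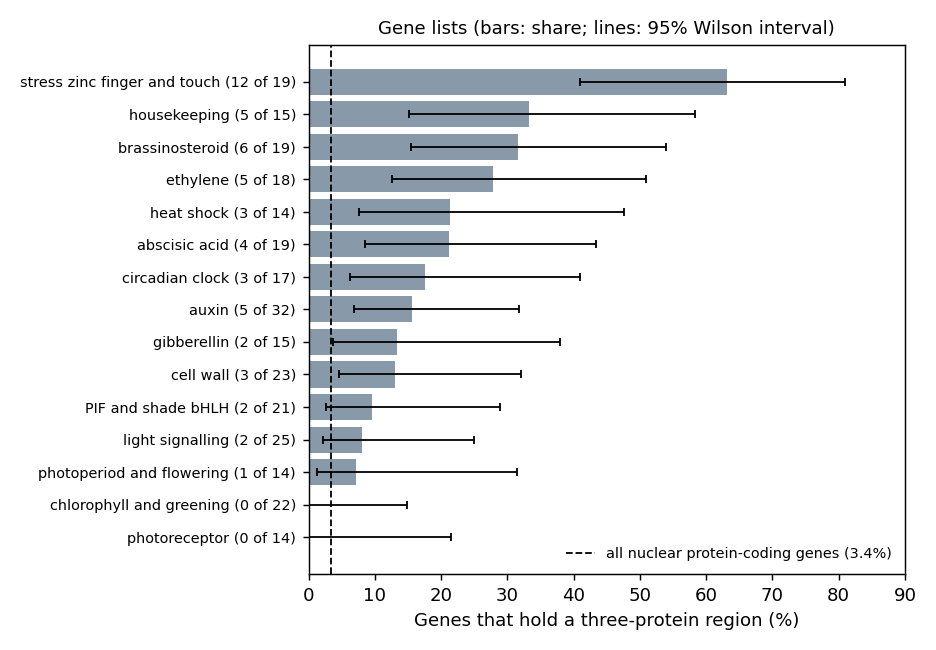
Percentage of the genes of each list that held a three-protein region with its midpoint in the gene (bars), with 95% Wilson intervals (lines, counting error only) and the percentage over all nuclear protein-coding genes (dashed line, 3.4%). The stress zinc finger and touch list stood at 63.2% (12 of 19), and in the lists at 0 no gene held the midpoint of a region.

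The stress zinc finger and touch list had the most, 12 of 19 genes (63.2%). The count was 8 with lists of equal size, 7 with the upper 50% of each list, 4 where the 3 summits had to lie in 1 gene and 2 where they had to lie within 100 bp. STZ, ZF1 (also AZF1) and ZF2 (AZF2) are zinc finger repressors, TCH3, CML37 and CML38 calmodulin-like calcium sensors, and TCH4 the wall enzyme named above. The cold-response regulators CBF1, CBF2 and DREB1A (CBF3) lie in tandem and each held a region of its own. As neighbours they are not independent entries among the 12 genes, and sharing of reads between them was not tested. CRY2 stood at 3.72, 3.04 and 2.47 in them, PIF4 at 4.35, 3.40 and 3.74, and PIF5 at 3.10, 2.40 and 2.57. DREB2A, a drought regulator, had 3.13, 3.09 and 2.29, and WRKY33, a defence regulator, had 2.13, 4.47 and 4.43. The median CRY2 value over the 12 genes was 3.24, against 2.48 over all 947 regions. In 10 of the 12 the region reached past both gene edges, against 27.8% of all 947. Such reach went with shorter genes among the 947 regions, and the part of gene length in this contrast was not tested. TCH3 had 3.35 for CRY2, 2.77 for PIF4 and 3.36 for PIF5. CML38 had 4.11, 2.45 and 2.16 and its region lay wholly within the gene, whereas CML37 had 2.01, 3.2 and 2.57.

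Housekeeping genes came next, with 5 of 15 (33.3%). The count was 1 to 3 under 5 of the 8 other settings. ACT7 had 2.93 for CRY2, 2.65 for PIF4 and 2.57 for PIF5, and GAPC1, a glycolytic enzyme gene, had 2.52, 3.34 and 2.64. UBQ10, a polyubiquitin gene, had 2.84, 2.14 and 2.86, and since its promoter drives the CRY2 transgene, the effect of the transgene on the CRY2 value there was not tested. UBQ3 and UBQ11 had 2.6 and 3.35 for CRY2, and polyubiquitin genes share sequence, so reads could be split between them.

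Hormone lists lay between 13.3% and 31.6%. In the brassinosteroid list 6 of 19 genes held a region: DWF4, DET2 and ROT3 of synthesis, BAS1 of breakdown, and the responsive genes EXO and BEE1. DWF4 had 2.18 for CRY2, 4.39 for PIF4 and 4.67 for PIF5, and its summits lay 656 to 1042 bp into the gene. EXO had the largest CRY2 value of the list, 6.04, with 4.09 and 2.86 for the PIFs. In the ethylene list 5 of 18 genes did, among them EBF1 and EBF2, F-box proteins that remove EIN3. The others were ACS6, an enzyme of ethylene synthesis, with 2.76 for CRY2, 1.93 for PIF4 and 3.69 for PIF5, and the transcription factor genes EIL1 and ERF6, with CRY2 at 2.34 and 2.93. EBF1 held 2 regions, with 2.84 and 3.22 for CRY2. In the abscisic acid list 4 of 19 did: the phosphatases PP2CA and HAI2, the transcription factor ABI5, and NCED3 of synthesis, with PIF4 values from 3.15 to 4.0. The auxin list had 5 of 32: IAA2, AFB2 and the exporters PIN3, PIN4 and PIN7. The regions of PIN3 and PIN7 lay wholly within the gene, with PIF4 at 4.03 and 3.53 and CRY2 at 2.30 and 2.18. AFB2, an auxin receptor, had the highest CRY2 value of that list, 4.37. The gibberellin list had 2 of 15, the receptor GID1C and GA2OX6, which inactivates gibberellin.

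Lists for light perception, light signalling and greening had the lowest shares or near to it. The light signalling list had 2 of 25 (BBX21 and BBX28), the PIF and shade list 2 of 21 (HFR1 and HB-2, the homeobox gene ATHB2), and the clock list 3 of 17 (CCA1, TOC1 and LCL1, also RVE4). CCA1 had 3.04 for CRY2, 2.98 for PIF4 and 2.87 for PIF5. The photoperiod list had 1 of 14, CDF1, a repressor of flowering genes, with 2.22 for CRY2, 3.51 for PIF4 and 1.98 for PIF5. None of 14 photoreceptor genes and none of 22 chlorophyll and greening genes held a region, with upper 95% limits of 21.5% and 14.9%. Both intervals include the 3.4% of all nuclear protein-coding genes, so neither 0 shows a share below it. PHYA was touched by a region whose midpoint lay elsewhere (7.14% of the photoreceptor list was touched, against 5.14% of all genes). Three-protein regions with the midpoint outside genes are not counted here. The cell wall list had 3 of 23 (TCH4, EXO and CESA6, a cellulose synthase subunit), and CESA6 held a region near each end, with CRY2 at 2.93 and 2.40. The heat shock list had 3 of 14: HSFA3, HSFB2A and HSC70-1.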

How the data were processed

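Per the submitters' processing notes, the build was TAIR10, and the tools named are MACS2 (2.0.10), Bowtie2 (2.1.0) and CASAVA (1.8.2), with no roles given. The authors deposited a pooled peak list per protein, in which the fold enrichment is a ratio of FLAG over control. The deposited score is the whole part of 10 times the deposited -log10 p. The constant in place of q values was not used. No per-sample column was used (0 unused columns), and depth is unknown.

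Regions, genes and summits were computed with Python 3.11.15, pandas 2.3.3, numpy 2.4.6 and scipy 1.17.1, with figures from matplotlib 3.10.9. Genes were 27444 nuclear protein-coding genes of RefSeq's TAIR10.1 table, which gives no strand or sequence; as a check of the frame, moving the table by 2000 bp changed the inside share of three-protein midpoints to 65.1%, against 44.6% unmoved. Position from the 5′ end and promoter motifs were therefore not analysed here. Where a midpoint lay in 2 genes, the one it lay deeper in was taken. The merging was tested on simulated data.

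Members and lists were chosen with earlier results of these data known. The lists had 295 entries, of which 7 were not matched, and 285 distinct genes; 5 symbols were assigned by locus after a first match had failed or taken another gene, once values had been seen. Named genes were the 10 with the best mean rank, the 5 highest per protein, and the 5 with CRY2 most ahead and most behind by percentile within its list. Extremes of width, spread and number of peaks, genes with 2 regions, and list members were named too. Intervals are 95% Wilson and cover counting error only. No test was run, since regions are not replicates. Alternatives changed the joining, the lists, the gene placement and the peak taken.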

Additional observations from a re-analysis of the deposited data

How the results depend on the processing

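Of 136 values (17 results under 8 settings), 74 stayed within their tolerance and 62 moved. A count stayed when it was within 1.5 times its value as reported, and a share or median when it lay in the 95% interval that counting error gives the reported one (Wilson for shares, order statistics for medians). By this rule the fall of the stress list to 8 genes with lists of equal size, against 12, stayed. All 17 stayed with joining by 100 bp, with all nuclear genes and with the nearest peak in place of the strongest. The results on the stress list, the housekeeping list and the strongest CRY2 peaks were added after the data had been seen.

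With all 3 summits within 100 bp, 303 regions in 302 genes were left, with median fold enrichments of 2.43 (CRY2) and 2.46 (PIF5), summit distances of 39 (CRY2 to PIF4), 36 (CRY2 to PIF5) and 23 bp (PIF4 to PIF5), 67.0% of CRY2 and 66.3% of PIF4 summits inside, a midpoint depth of 7.39% of gene length, a width of 1218 bp, and 2 stress genes, 2 housekeeping genes and 9 strongest CRY2 peaks. The setting itself bounds the distances. With the upper 50% of each list, there were 366 regions in 363 genes, fold enrichments of 2.75, 3.46 and 2.895 (CRY2, PIF4, PIF5), a CRY2 to PIF4 distance of 159 bp, 54.6% of PIF4 summits inside, a depth of 17.4%, 95.4% reaching an edge, a width of 2033 bp, and 7 stress genes, 2 housekeeping genes and 34 strongest CRY2 peaks. With lists of equal size, there were 463 regions in 462 genes, fold enrichments of 2.69, 3.36 and 2.71, 95% reaching an edge, a width of 1812 bp, 1 housekeeping gene and 34 strongest CRY2 peaks. The upper 50% removes weak peaks of every list by construction, and equal size those of CRY2 and PIF4. No PIF5 peak is removed by equal size, and the cause of the PIF5 shift there was not tested.

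With all 3 summits in the same gene, there were 553 regions in 548 genes (459 of them among the 933), distances of 94 bp (CRY2 to PIF4) and 88 bp (CRY2 to PIF5), 100% of the summits of every protein inside by construction, 88.1% reaching an edge, a width of 1470 bp, and 4 stress genes, 2 housekeeping genes and 31 strongest CRY2 peaks. With the midpoint at least 250 bp inside, there were 514 regions in 510 genes, fold enrichments of 2.59 (CRY2) and 2.585 (PIF5), distances of 224, 166.5 and 43 bp, summits inside the gene in 83.5% (CRY2), 67.3% (PIF4) and 74.7% (PIF5), a depth of 29.0%, 87.2% reaching an edge, a width of 2062.5 bp and 3 housekeeping genes. For the other moved values the cause was not tested.

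No paired analysis was possible because each deposited list pools its replicates; replicates were likewise not left out, and depth is unknown. Positions from the 5′ end and promoter motifs were planned and not run.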

Other observations

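Gene families found by symbol gave a wider view, chosen after the data had been seen. All 25 families that were tabulated are kept, with 3 loci removed whose symbol names another family (RAV2, RPS4 and the cell growth gene also called CDF1). The share of genes with a region was at least 15% in 5 families: JAZ repressors of jasmonate response (3 of 12), PUB ubiquitin ligases (5 of 23), ATL ubiquitin ligases (3 of 14), WRKY factors (12 of 71) and ERF and DREB factors (10 of 59). It was 0 of 24 in expansins, 0 of 24 in genes named bHLH, 1 of 80 in SAUR genes and 1 of 55 in ribosomal genes. It was 1 of 43 in aquaporins, 1 of 36 in CIPK and CBL genes and 1 of 33 in XTH genes. Over all nuclear protein-coding genes the share was 3.4%, and the 95% interval of each of these low families included it. The bHLH count covers only genes with that symbol and leaves out HFR1, a basic helix-loop-helix gene that held a region. The other 13 families lay between, for example 8 of 127 MYB genes, 8 of 100 NAC genes and 14 of 234 CYP genes. JAZ1 had a PIF4 fold enrichment of 4.22 and a PIF5 fold enrichment of 2.77, and its CRY2 summit lay 1357 bp into the gene. PUB18 had 2.41 for CRY2, 4.82 for PIF4 and 4.13 for PIF5. No family was tested, and small families have wide intervals (JAZ 8.89 to 53.2%).

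A lncRNA gene was overlapped by 87 of the 947 regions (9.19%), against 151 of the 1176 three-protein regions outside genes (12.8%), a difference that was not tested. Of the 947 regions, 16 overlapped a tRNA gene, 3 a snoRNA gene and 3 a miRNA gene, the last over RTFL17, RDUF1 and AT4G39840. No rate in other regions is given beside these counts, so they do not show whether such overlaps were many or few.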
